A study of Homo sapiens with 6 samples.

Results

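The lysosome is the acidic compartment in which cells break down protein, lipid, sugar polymers and nucleic acid. The vacuolar proton pump (V-ATPase) acidifies it: a soluble sector called V1 splits ATP, and a membrane sector called V0 carries the protons across. Soluble hydrolases arrive from the Golgi, most of them on mannose 6-phosphate receptors, and heavily glycosylated proteins and channels line the membrane. TFEB, TFE3 and MITF are related transcription factors that bind a DNA element found near many lysosomal genes, and growth signals that act through the kinase complex mTORC1 at the lysosome hold them in the cytoplasm.

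A list of 49 genes was followed, made of 16 genes of the proton pump, 9 lysosomal proteases, 14 other hydrolases and their activators, 7 membrane and sterol-handling proteins and the 3 TFEB family factors. They were taken by symbol from the 60835 gene names of the deposited count table, and all 49 were found. All RNA came from SW620, a long-established line of human colon cancer cells taken from a lymph node metastasis. One group of 3 libraries came from cells with a control hairpin vector (labelled shControl, genotype WT), and the other 3 came from cells with a stable hairpin vector against DNM1 (labelled shDNM1, genotype DNM1 Knockdown). DNM1 encodes dynamin 1, a GTPase that cuts endocytic vesicles from the plasma membrane. The cells were kept in high-glucose DMEM with serum and the labels give no other treatment, and the hairpin's sequence and the number of clones behind each group are not stated in the labels. The labels place every shControl library in batch_A and every shDNM1 library in batch_B, so vector and batch cannot be told apart in any result here. No label names separate cultures within a group, so the p-values reflect only how the libraries of a group differ, and that spread may be technical. In bulk RNA, fewer cells with a transcript and less of it in each cell also cannot be told apart.

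Library totals were 12844534 to 13537519 counts. The library shDNM1 2 had 16347 genes with at least 10 counts, against 16771 to 16896 in the other 5, and the mitochondrial transcripts took 3.42% ± 0.018 of counts in shControl and 3.84% ± 0.16 in shDNM1 (SD, n = 3). DNM1, the targeted gene, had 127, 127 and 133 CPM (a gene's share of its library's counts after TMM scaling) in shControl and 126, 97.8 and 125 CPM in shDNM1. The groups did not overlap, but the difference did not pass the test (log2 fold change -0.15, SE 0.083, 95% interval -0.32 to 0.03, adjusted p = 0.190). Of the libraries left out in turn, it passed only without shDNM1 1 (-0.20, adjusted p = 0.0399), and without shDNM1 2 it was -0.04 (adjusted p = 0.718). The groups are therefore named below by their labels, and every "higher" or "lower" refers to the libraries labelled shDNM1. Of 13 colon epithelial markers, EPCAM, CDH1, VIL1, KRT8, KRT18 and KRT19 were abundant in both groups, and CDX2, an intestinal transcription factor, rose from 8.06 ± 1.49 to 19.9 ± 1.48 CPM (2.47-fold, adjusted p = 1.66e-06). CDH17, KRT20, GPA33, LGALS4 and GUCY2C had group means of 0.466 to 1.64 CPM, and CDX1 was at 0 in all 6 libraries.

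Over the whole table, 16744 genes were tested. At an adjusted p under 0.05, 31.9% of them passed: 15.6% were higher with the shDNM1 label and 16.2% were lower. These shares are the background for every count below. Of the 49 lysosomal genes, 48 were tested, and 21 rose (43.8%), 2 fell (4.17%) and 25 did not pass. The groups did not overlap for 26 of the 48 with shDNM1 higher (54.2%) and for 4 with shDNM1 lower (8.33%), where all genes tested gave 21.2% and 23.1%. Their median log2 fold change was 0.14, beside -0.01 for all genes tested. The shifts were mostly small: only CTSD and CTSL changed over 2-fold. On the authors' length-adjusted TPM values with limma-trend, on log2(TPM + 1), 13 of the 48 rose and 3 fell, and all genes tested gave 1801 higher and 2846 lower in place of 2617 and 2720. The 8 calls lost on that scale were those of ATP6V1C1, ATP6V1E1, ATP6V1H, CTSZ, NEU1, MCOLN1, TMEM192 and TFEB (adjusted p = 0.0502 to 0.109). No gene of the list turned its direction in a called result under any of the 19 alternative settings, and ATP6V0D1 and CTSD stayed called under all of them.

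**Figure D1:**
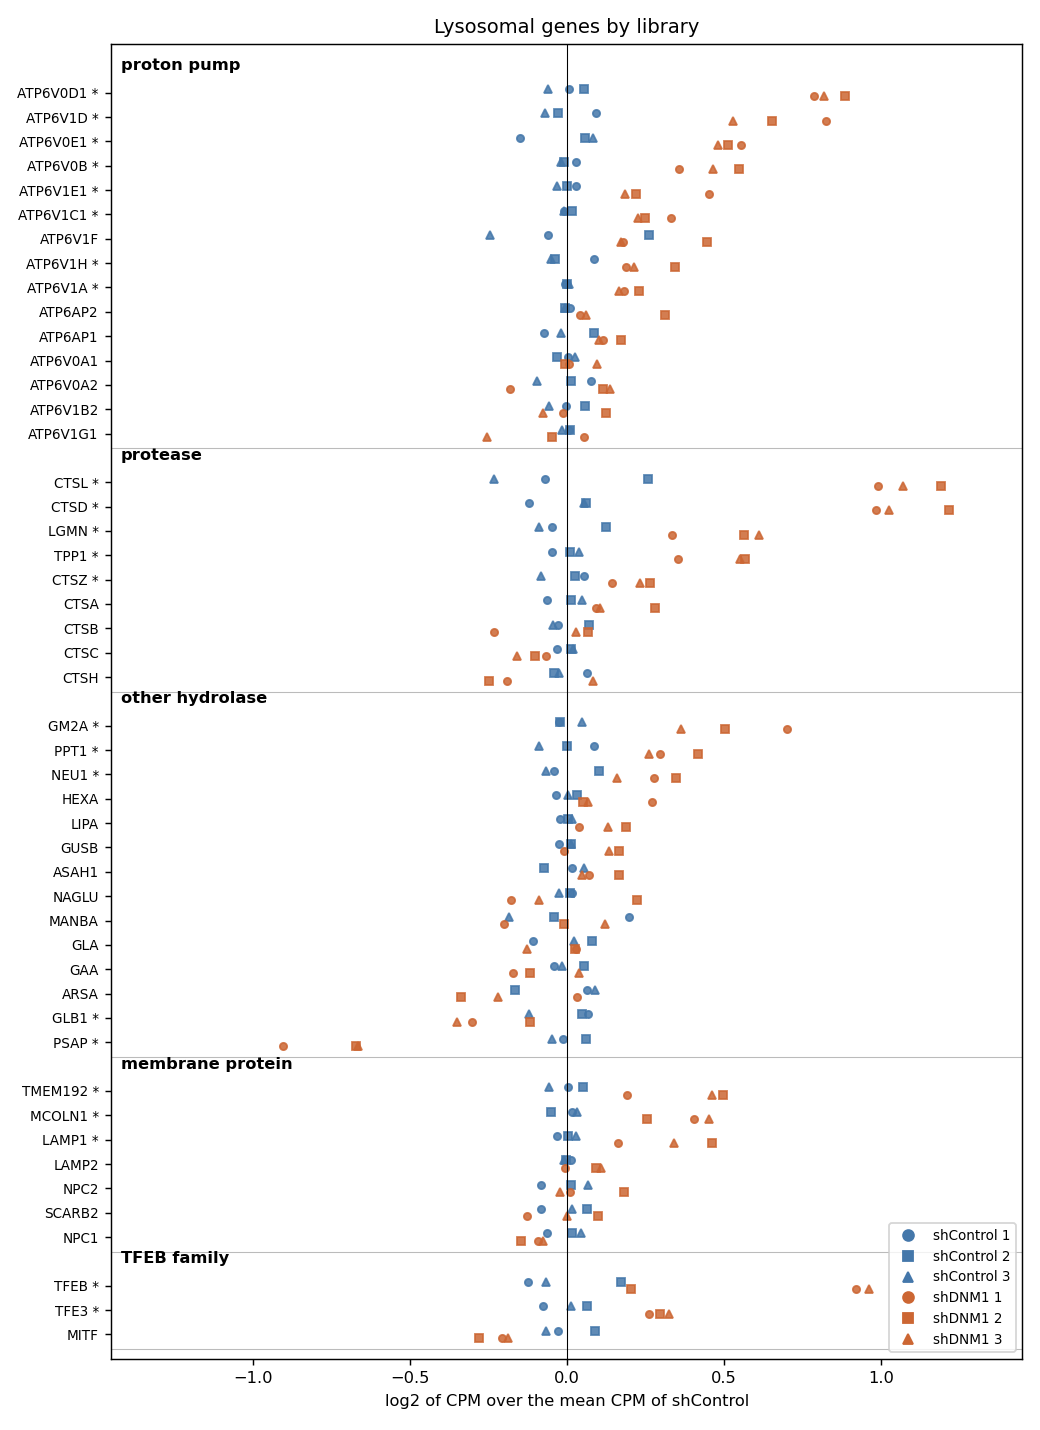
Each row is 1 of the 48 tested lysosomal genes and each point 1 library, placed at the log2 ratio of its CPM to the mean CPM of the 3 shControl libraries (blue shControl, orange shDNM1; circle, square and triangle are libraries 1, 2 and 3). An asterisk marks the 23 genes that passed the test; among them shDNM1 lies to the right for 21 and to the left for PSAP and GLB1.

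The DNA element of the TFEB family, called CLEAR, is built on the palindrome CACGTG, which reads the same on both strands. RefSeq promoter sequence (GRCh38.p14) was matched for 35 of the 49 genes and for 11154 of the genes tested, and the 250 bases before each start were searched. CACGTG stood in 9 of the 35 windows (25.7%), against 10.9% of the windows of all genes tested and 6.35% of all 35116 windows in the table. The longer palindrome TCACGTGA, which contains it, stood in 6 of the 35 (17.1%), against 1.97% for all genes tested. The element is found near many lysosomal genes, so a higher share in a list of such genes was likely beforehand. These shares rest on sequence alone and are no result of the RNA data. Of the 16 genes with a window that rose, 6 held CACGTG: ATP6V0B, ATP6V0D1, CTSD, NEU1, LAMP1 and MCOLN1. Of the 17 with a window that did not pass the test, 3 held it: ATP6V1G1, CTSA and GAA. Over all genes tested, 12.4% of those that rose and 10.6% of those not called held it. For TCACGTGA the split was 3 of 16 and 3 of 17, close to equal. A match is a match of letters in a window and was not measured as a bound site.

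Stretches from 6 of these windows are shown, with GAA as a gene that holds 2 matches and did not pass the test. They are a selection, and the matches of NEU1, ATP6V1G1 and CTSA are not shown. ATP6V1D, CTSL, PSAP, GM2A and TFE3, described below, had no match or no window. Each is written 5′ to 3′ on the gene's own strand and CACGTG is in capitals. For ATP6V0D1, ATP6V0B and CTSD only 30 bases are given, because GENCODE places exons there.
ATP6V0D1, chr16:67481199-67481228, minus strand: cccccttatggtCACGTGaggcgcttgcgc
ATP6V0B, chr1:43974900-43974929, plus strand: ggtCACGTGgtaccggcgcatCACGTGggc
CTSD, chr11:1763957-1763986, minus strand: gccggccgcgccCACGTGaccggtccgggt
LAMP1, chr13:113297039-113297238, plus strand: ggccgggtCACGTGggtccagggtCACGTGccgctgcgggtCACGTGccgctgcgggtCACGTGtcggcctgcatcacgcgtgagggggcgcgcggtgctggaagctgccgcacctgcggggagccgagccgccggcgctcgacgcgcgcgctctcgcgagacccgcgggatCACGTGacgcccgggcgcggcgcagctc
MCOLN1, chr19:7522524-7522623, plus strand: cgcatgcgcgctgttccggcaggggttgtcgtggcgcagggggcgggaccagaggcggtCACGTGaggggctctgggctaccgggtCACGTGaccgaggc
GAA, chr17:80101481-80101580, plus strand: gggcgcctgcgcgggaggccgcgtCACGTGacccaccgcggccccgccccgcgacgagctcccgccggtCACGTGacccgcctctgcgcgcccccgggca

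LAMP1 held 5 matches, the nearest 28 and the farthest 192 bases before its start. MCOLN1, GAA and ATP6V0B held 2 each, and ATP6V0D1 and CTSD 1 each, 59 and 47 bases before the start.

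The proton pump genes that passed the test were all higher. Of 15 tested genes, 8 rose (53.3%), none fell and 7 did not pass, with a median log2 fold change of 0.25. Both sectors took part, with 3 of 5 tested V0 genes and 5 of 8 V1 genes higher. Summed over the 16 pump genes, TPM stood at 1085 ± 24.2 for shControl and at 1301 ± 39.0 for shDNM1 (SD, n = 3).

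ATP6V0D1 encodes subunit d, which couples the membrane ring to the rotating stalk, and lies at chr16:67438014-67481181. It had 121, 125 and 116 CPM in shControl and 208, 223 and 212 CPM in shDNM1. The libraries within each group lay close together and far from the other group. The rise was 1.78-fold (log2 0.83, SE 0.063, adjusted p = 1.90e-08). ATP6V1D encodes subunit D, the rotating stalk itself (chr14:67294371-67360265). Its values were 38.8, 35.6 and 34.7 CPM in shControl and 64.4, 57.2 and 52.4 CPM in shDNM1. No library of one group reached the other, and the gene was 1.59-fold higher (log2 0.67, SE 0.087, adjusted p = 1.11e-05). ATP6V0B, for a proteolipid of the membrane ring (chr1:43974487-43978295), went from 77.0, 75.0 and 74.5 CPM to 96.6, 110 and 104 CPM. The shControl libraries were almost alike and all shDNM1 libraries were above them, at 1.37-fold (log2 0.46, SE 0.069, adjusted p = 5.29e-05). ATP6V0E1, the small subunit e (chr5:172983771-173035445), had 21.1, 24.3 and 24.7 CPM against 34.3, 33.3 and 32.6 CPM, a 1.43-fold rise (log2 0.52, SE 0.093, adjusted p = 0.000335).

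The other 4 pump genes that rose belong to V1 and changed less: ATP6V1A, a catalytic subunit of the ATP-splitting ring, was 1.14-fold higher, ATP6V1H, the regulatory subunit H, 1.19-fold, ATP6V1C1, the subunit C that holds the sectors together, 1.21-fold, and ATP6V1E1, of the outer stalk, 1.22-fold. ATP6V1A lost its call without shControl 1, 2 or 3 (adjusted p = 0.0571, 0.0613 and 0.0790). ATP6V1H lost its call without shControl 2, shControl 3 or shDNM1 2 (adjusted p = 0.0846, 0.110 and 0.0791). The 7 that did not pass were ATP6V0A1, ATP6V0A2, ATP6V1B2, ATP6V1F, ATP6V1G1 and the accessory proteins ATP6AP1 and ATP6AP2, with log2 fold changes of -0.08 to 0.27. ATP6V1F passed without shControl 2 (adjusted p = 0.0352) and ATP6AP2 without shDNM1 1 (adjusted p = 0.0271). For ATP6V1B2, the other subunit of the ATP-splitting ring, the difference was 0.01 with a 95% interval of -0.13 to 0.16 on the log2 scale. ATP6V0C, the main ring proteolipid, had only 3, 4 and 5 counts in shControl and 7, 7 and 10 in shDNM1 and was not tested. Of its exonic bases, 72.1% are shared on the same strand with 2 readthrough genes, which themselves had 0 counts in every library, so its level here is uncertain.

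Several pump subunits have more than 1 gene, each with its own tissue range, and the isoform mix of SW620 can be read on the TPM scale. For subunit a, TCIRG1 took 74.0% ± 0.17 of the summed TPM in shControl and 75.6% ± 1.93 in shDNM1, with ATP6V0A1 at 12.2% and 11.5% and ATP6V0A2 at 10.5% and 9.92%. TCIRG1, which encodes the a3 isoform of osteoclasts and secretory lysosomes, had 166 ± 2.58 and 177 ± 14.7 TPM. ATP6V0D2, the osteoclast partner of ATP6V0D1, was listed at 0 in every library, so ATP6V0D1 was the whole of subunit d. ATP6V0E1 made up 72.4% ± 2.40 of subunit e in shControl and 77.2% ± 1.52 in shDNM1, beside ATP6V0E2. The ubiquitous genes ATP6V1B2, ATP6V1C1, ATP6V1E1 and ATP6V1G1 each supplied at least 96.5% of their subunit in both groups.

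**Figure D2:**
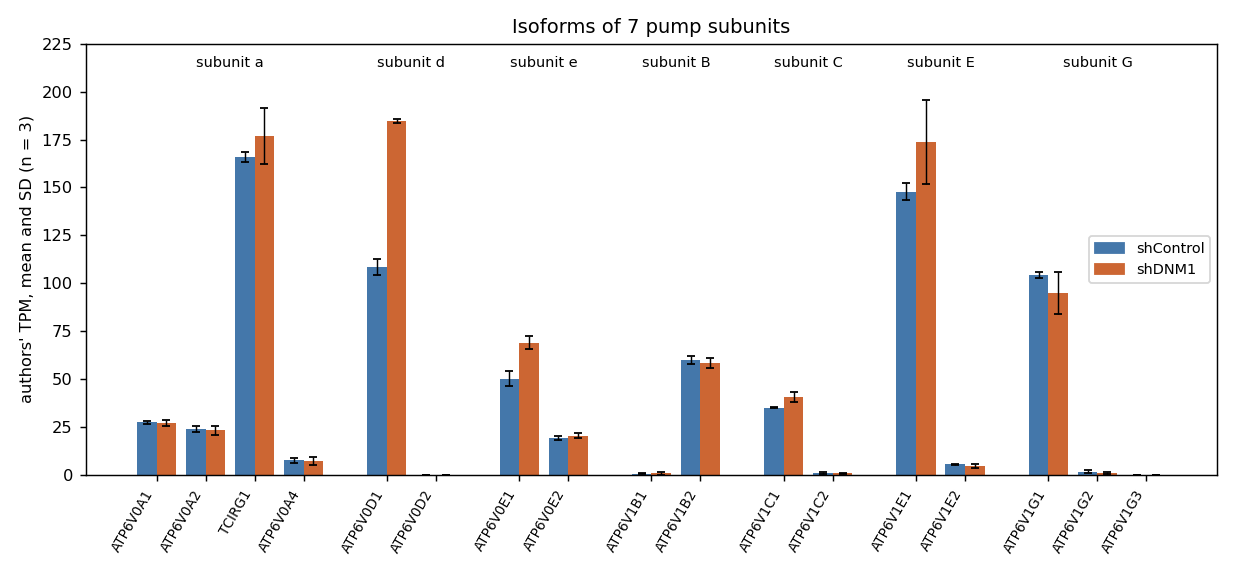
Bars give the mean authors' TPM of each isoform gene of 7 pump subunits in shControl (blue) and shDNM1 (orange), with the SD over 3 libraries as error bars, on an axis from 0. TCIRG1 is the tallest of subunit a in both groups, and ATP6V0D1 goes from 108 to 185 TPM while ATP6V0D2 stays at 0.

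Of the 9 proteases, 5 rose (55.6%), none fell and 4 did not pass, and the median log2 fold change was 0.21. CTSD is cathepsin D, the main aspartic protease of the lysosome (chr11:1752752-1764573). It had 38.8, 44.0 and 43.8 CPM in shControl and 83.5, 98.0 and 85.9 CPM in shDNM1. Every shDNM1 library was far above every shControl library, and the gene was 2.11-fold higher (log2 1.08, SE 0.081, adjusted p = 1.90e-08). Of its exonic bases, 41.7% are shared on the same strand with other annotation. Its exons overlap those of AC068580.3 and AC068580.4 on either strand, and the share of each gene was not separated. AC068580.4 had at most 8 counts in a library, and no counts were found for AC068580.3. CTSL, the cysteine protease cathepsin L (chr9:87724051-87731469), rose to the same extent from a much lower level. It had 2.76, 3.46 and 2.47 CPM in shControl and 5.75, 6.62 and 6.08 CPM in shDNM1, without overlap (2.12-fold, log2 1.08, SE 0.21, adjusted p = 0.000536). On the TPM scale it stood at 1.92 ± 0.32 and 3.92 ± 0.16, where CTSD stood at 29.1 ± 1.70 and 59.1 ± 3.28.

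LGMN, the asparagine-specific protease legumain that matures other cathepsins (chr14:92703807-92748679), had 36.4, 41.0 and 35.4 CPM against 47.4, 55.6 and 57.4 CPM. All 3 shDNM1 libraries were higher, at 1.42-fold (log2 0.51, SE 0.089, adjusted p = 0.000267). TPP1, a tripeptidyl peptidase lost in a childhood neuronal storage disease (chr11:6612768-6619448), had 61.9, 64.3 and 65.6 CPM against 81.6, 94.7 and 93.6 CPM, a rise of 1.41-fold (log2 0.49, SE 0.073, adjusted p = 4.99e-05). CTSZ, the carboxypeptidase cathepsin Z, rose 1.16-fold, and lost its call without shControl 3 (adjusted p = 0.127) or shDNM1 3 (adjusted p = 0.0579). The most abundant proteases by TPM did not pass: the cysteine proteases cathepsin B (CTSB, 165 ± 5.68 and 154 ± 13.7 TPM) and cathepsin C (CTSC, 123 ± 1.27 and 110 ± 5.17 TPM). CTSC was lower without overlap, at a log2 fold change of -0.11, and passed on log2(TPM + 1) (-0.17, adjusted p = 0.0367). CTSA, the carboxypeptidase cathepsin A, and CTSH, the aminopeptidase cathepsin H, also did not pass (log2 0.16 and -0.11).

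**Figure D3:**
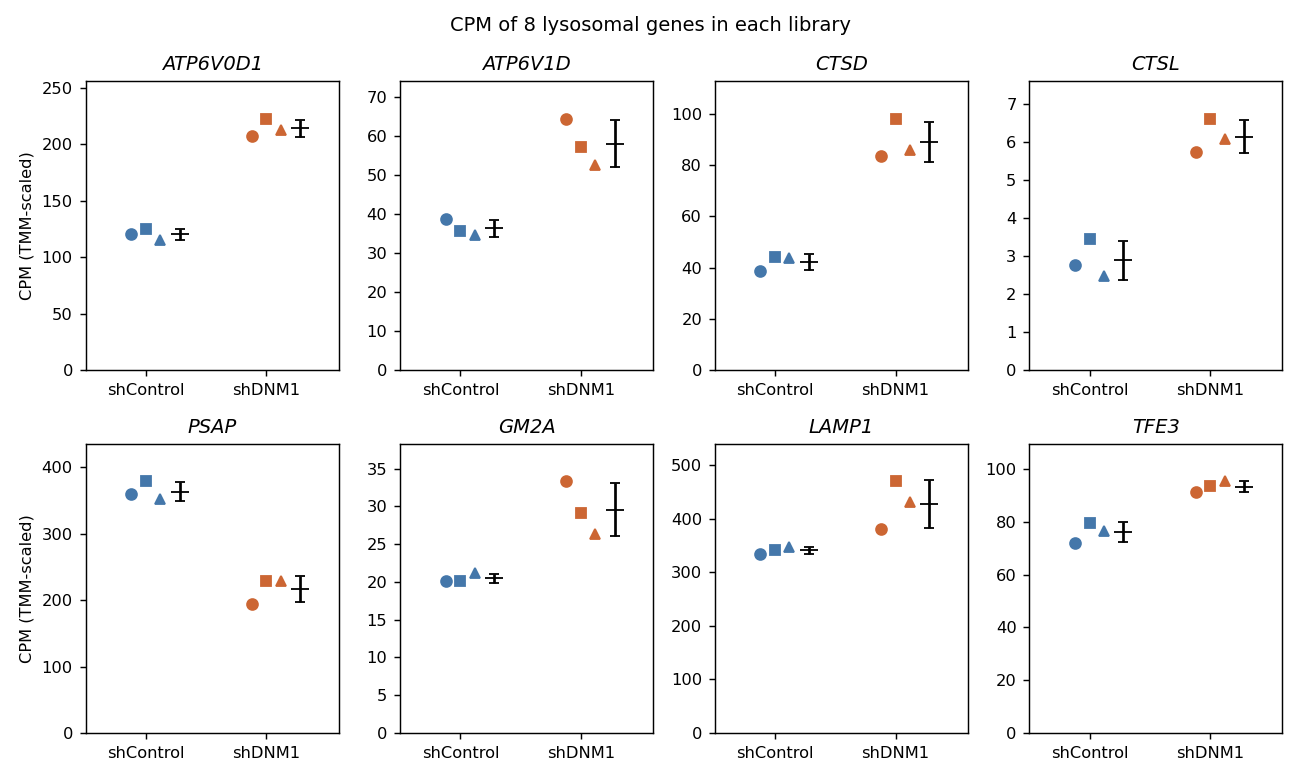
CPM of 8 lysosomal genes in each library, with shControl in blue and shDNM1 in orange, library 1 to 3 as circle, square and triangle, and the mean with its SD (n = 3) beside them on axes from 0. The groups are apart in all 8; shDNM1 is higher in 7 and lower in PSAP, where it lies between 194 and 229 CPM against 352 to 379 CPM.

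Among the 14 other hydrolases and activators the changes went both ways: 3 rose (21.4%), 2 fell (14.3%) and 9 did not pass, with a median log2 fold change of 0.05. PSAP was the largest fall of the 49 genes and, by TPM, the most abundant of them in shControl (403 ± 12.6, against 231 ± 17.8 in shDNM1). It encodes prosaposin, the precursor of the saposins that present sphingolipids to hydrolases, and lies at chr10:71816298-71851251. The CPM values were 360, 379 and 352 in shControl and 194, 228 and 229 in shDNM1. The lowest shControl library was above the highest shDNM1 library by a wide margin, and expression was 59.7% of control (log2 -0.74, SE 0.070, adjusted p = 2.62e-07). Summed over the 14 genes, PSAP included, TPM stood at 1091 ± 21.4 and 939 ± 19.3, and over the 13 genes other than PSAP at 688 ± 10.7 and 708 ± 4.54. GM2A, another sphingolipid activator, which lifts ganglioside GM2 to its hydrolase (chr5:151212150-151270440), went the other way. It had 20.2, 20.2 and 21.2 CPM in shControl and 33.3, 29.1 and 26.4 CPM in shDNM1 (1.44-fold, log2 0.53, SE 0.10, adjusted p = 0.000682).

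PPT1, which removes palmitate from proteins (chr1:40072710-40097260), had 115, 108 and 102 CPM against 133, 145 and 130 CPM, without overlap, a rise to 125.4% of control (log2 0.33, SE 0.069, adjusted p = 0.00130). It shares 23.4% of its exonic bases with CAP1 on the opposite strand, and CAP1 was 1.38-fold higher (adjusted p = 1.23e-05). No source used here says whether counting used strand, so the reads of this pair may be mixed. The same limit holds for CTSA, which shares 28.5% of its exonic bases with genes on the opposite strand, PLTP among them, for ATP6V1F, which shares 23.7% with KCP (1.81-fold, adjusted p = 0.0821), for CTSD (15.8%) and for HEXA (13.0%). NEU1, GLB1 and CTSA encode a sialidase, a beta-galactosidase and their protective protein, which form a complex in the lysosome. NEU1 rose, GLB1 fell and CTSA did not pass. NEU1 (chr6:31857659-31862905) had 43.0, 47.5 and 42.3 CPM against 53.7, 56.4 and 49.5 CPM and rose 1.20-fold (log2 0.26, SE 0.080, adjusted p = 0.0174). That call was lost without shControl 1, shControl 3 or shDNM1 2 (adjusted p = 0.0716, 0.106 and 0.0624). GLB1 (chr3:32996609-33097202) had 53.2, 52.5 and 46.7 CPM against 41.2, 46.9 and 39.8 CPM, so library shDNM1 2 reached into the shControl range. It fell to 83.8% of control (log2 -0.25, SE 0.085, adjusted p = 0.0286), and lost its call with DESeq2 (adjusted p = 0.0788) and without shControl 1, shControl 2 or shDNM1 3 (adjusted p = 0.138, 0.0987 and 0.127).

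The 9 that did not pass had log2 fold changes from -0.17 (ARSA, a sulfatase) to 0.13 (HEXA, which cleaves GM2). They include the alpha-galactosidase GLA, the glycogen-degrading GAA, the beta-glucuronidase GUSB, the beta-mannosidase MANBA, the ceramidase ASAH1, the lipase LIPA and the heparan-sulfate enzyme NAGLU. GAA, whose window holds 2 matches to CACGTG, had 117, 125 and 119 CPM against 107, 111 and 124 CPM, with overlapping groups (log2 -0.08, 95% interval -0.23 to 0.06). For LIPA the groups did not overlap (log2 0.12), and it passed without shDNM1 1 (adjusted p = 0.0436).

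Of the 7 membrane and sterol-handling proteins, 3 rose (42.9%) and none fell, with a median log2 fold change of 0.07. LAMP1, the glycoprotein that coats the inner face of the lysosomal membrane (chr13:113297239-113323672), was 333, 341 and 347 CPM in shControl and 381, 469 and 431 CPM in shDNM1. The shDNM1 libraries spread more widely but all stood above shControl, at 125.5% of control (log2 0.33, SE 0.070, adjusted p = 0.00152). TMEM192, a transmembrane protein often used as a tag to pull down lysosomes (chr4:165070608-165208549), had 40.6, 41.9 and 38.9 CPM against 46.2, 57.1 and 55.7 CPM. It rose 1.31-fold (log2 0.39, SE 0.087, adjusted p = 0.00216), but did not pass on log2(TPM + 1) (adjusted p = 0.0689). MCOLN1, the calcium-releasing channel TRPML1 (chr19:7522624-7534009), had 12.0, 11.5 and 12.2 CPM against 15.8, 14.2 and 16.3 CPM and rose 1.29-fold (log2 0.37, SE 0.12, adjusted p = 0.0257). Its call was lost with DESeq2 (adjusted p = 0.0548) and without shControl 1, shControl 2, shControl 3 or shDNM1 3 (adjusted p = 0.0575, 0.0852, 0.0651 and 0.0802).

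NPC1, the membrane partner of the pair that exports cholesterol from lysosomes (chr18:23506184-23586506), had 89.8, 94.9 and 96.7 CPM against 88.1, 84.7 and 89.0 CPM. The groups did not overlap but the difference did not pass (log2 -0.10, SE 0.065, adjusted p = 0.242). Its soluble partner NPC2, the second coat glycoprotein LAMP2 and the membrane glycoprotein SCARB2 also did not pass, with overlapping groups and log2 fold changes of -0.01 to 0.07. For LAMP2 the 95% interval was -0.06 to 0.20, so a change of the size fitted for LAMP1 (0.33) lay outside it, while a direct test of one gene against the other was not made.

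Of the TFEB family, TFE3 and TFEB rose and MITF did not pass. TFE3 was by far the most abundant, at 70.5 ± 2.49 TPM in shControl and 83.1 ± 2.73 in shDNM1, where TFEB had 2.04 ± 0.20 and 3.29 ± 0.95 TPM and MITF 1.54 ± 0.075 and 1.27 ± 0.080 TPM. For TFE3 (chrX:49028726-49043410) the CPM values were 72.2, 79.5 and 76.8 in shControl and 91.3, 93.6 and 95.4 in shDNM1. Those groups were well apart, at 1.23-fold (log2 0.29, SE 0.067, adjusted p = 0.00235). TFEB (chr6:41683978-41736259) had 2.22, 2.73 and 2.31 CPM in shControl and 4.58, 2.79 and 4.71 CPM in shDNM1. Library shDNM1 2 was hardly above shControl 2, while the other two shDNM1 libraries stood clear of them (1.66-fold, log2 0.73, SE 0.25, adjusted p = 0.0349). Its call was lost under 12 of the 19 alternatives, among them leaving out shControl 1, 2 or 3 (adjusted p = 0.110, 0.0540 and 0.109) or shDNM1 1 or 3 (adjusted p = 0.0892 and 0.137), library size alone (0.0507), limma-voom (0.0516), DESeq2 (0.0841) and log2(TPM + 1) (0.109). MITF (chr3:69739456-69968336) had 2.38, 2.58 and 2.31 CPM against 2.10, 1.99 and 2.13 CPM. It was lower without overlap but far from passing at this depth (log2 -0.22, SE 0.26, 95% interval -0.78 to 0.33, adjusted p = 0.562).

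The 3 shDNM1 libraries did not contribute alike. Of the 48 tested genes, library shDNM1 2 had the highest CPM of the 3 in 25, while over all genes tested it was the highest in 35.9%. Library shDNM1 1 was the highest in 10 and shDNM1 3 in 13, beside 34.7% and 29.5% of all genes tested. Without shDNM1 2, 19 of the genes rose and 2 fell, beside 2431 higher and 2584 lower of 17292 genes tested.

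Beyond the 49, 155 further lysosomal genes in 6 lists were found in the table and 139 were tested, of which 38 rose (27.3%) and 16 fell (11.5%), with a median log2 fold change of 0.11. Without shControl 3 the number that rose was 23, and 1903 of 17310 genes tested were higher in that fit. In the pathway annotation of the deposited table, the KEGG lysosome pathway had 114 tested genes, 38 higher (33.3%) and 12 lower (10.5%). Its 81 genes outside the 49 gave 26 higher (32.1%) and 10 lower (12.3%).

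**Figure D4:**
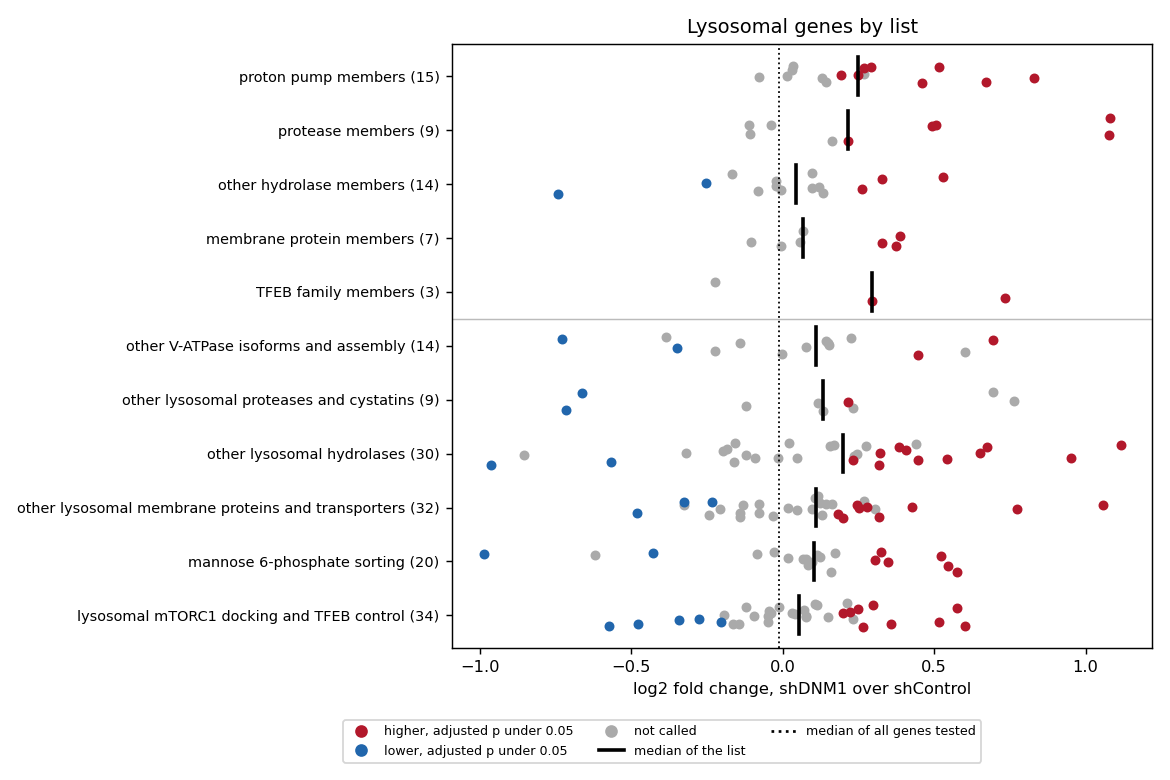
Each point is a tested gene at its log2 fold change, shDNM1 over shControl, in the 5 groups of the 49 genes (above the line) and the 6 lists of other lysosomal genes (below), with the number tested in brackets. Black bars are list medians and the dotted line is the median of all genes tested, -0.01; the proton pump (0.25) and protease (0.21) medians lie farther from it than that of the other hydrolases (0.05).

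Of 14 other pump isoforms and assembly factors tested, 2 were higher (14.3%), 2 lower (14.3%) and 10 not called, shares near those of all genes tested. VMA21, an assembly chaperone of the V0 sector in the endoplasmic reticulum, rose from 88.4 ± 1.68 to 120 ± 6.39 CPM (log2 0.45, SE 0.066, adjusted p = 4.33e-05). TMEM199, another assembly factor, rose 1.62-fold from 3.33 ± 0.15 CPM (adjusted p = 0.0154), a call lost without shControl 3 (adjusted p = 0.0620) or shDNM1 2 (adjusted p = 0.0722). DMXL2 and DMXL1, the rabconnectin proteins that join V1 to V0, both fell: DMXL2 from 26.4 ± 0.94 to 15.9 ± 2.50 CPM (log2 -0.73, SE 0.12, adjusted p = 9.03e-05) and DMXL1 to 78.4% of control (adjusted p = 0.00590, and 0.0529 on log2(TPM + 1)). The 8 called pump subunits and both rabconnectin genes therefore differed in direction.

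Of 9 further proteases and cystatins tested, PRCP, a prolyl carboxypeptidase, fell from 71.8 ± 2.68 to 45.3 ± 2.53 CPM (log2 -0.66, SE 0.074, adjusted p = 2.04e-06), and CTSV, the closest relative of CTSL, fell from 9.56 ± 1.496 to 5.82 ± 1.34 CPM (log2 -0.72, adjusted p = 0.00657). CSTB, a cysteine protease inhibitor, was called higher by a small amount (1.16-fold, adjusted p = 0.0438) and lost the call when shControl 1, 2 or 3 or shDNM1 2 or 3 was left out (adjusted p = 0.157, 0.145, 0.0502, 0.108 and 0.0704).

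Of 30 further hydrolases tested, 11 rose (36.7%) and 2 fell (6.67%). GGH, which trims the glutamate tail of folates, rose from 184 ± 3.52 to 398 ± 40.7 CPM (2.17-fold, log2 1.12, SE 0.071, adjusted p = 2.71e-09). HYAL2, a hyaluronidase, rose from 22.8 ± 2.29 to 36.4 ± 0.22 CPM (adjusted p = 2.32e-05). HGSNAT, a membrane enzyme of heparan sulfate breakdown, fell to 51.3% of control (log2 -0.96, SE 0.16, adjusted p = 0.000127). FUCA1, an alpha-fucosidase, fell to 67.5% of control (adjusted p = 0.00797).

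Of 32 further membrane proteins and transporters tested, 9 rose (28.1%) and 3 fell (9.38%). SLC36A1, a proton-coupled exporter of amino acids, rose from 22.0 ± 1.31 to 45.7 ± 3.23 CPM (2.08-fold, log2 1.06, SE 0.090, adjusted p = 7.60e-08). OSTM1, the partner of the chloride exchanger CLCN7, rose 1.71-fold (adjusted p = 2.90e-05), CLCN6, a related exchanger, 1.34-fold (adjusted p = 0.00132), and TPCN1, an ion channel, 1.24-fold (adjusted p = 0.00321). On log2(TPM + 1) the calls of CLCN6 and TPCN1 were lost (adjusted p = 0.0578 and 0.0503). The genes that fell were PIP4P1, annotated as a phosphoinositide phosphatase (79.7% of control, adjusted p = 0.00637), TMEM175, an ion channel (71.6%, adjusted p = 0.00984), and MFSD12, a cysteine importer (85.1%, adjusted p = 0.0279). MFSD12 lost its call without shControl 1, shControl 2 or shDNM1 1 (adjusted p = 0.103, 0.0903 and 0.0818).

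In the sorting route that brings hydrolases to the lysosome, 6 of 20 genes rose and 2 fell. The 2 mannose 6-phosphate receptors were both higher: M6PR went from 104 ± 5.60 to 152 ± 13.1 CPM (log2 0.55, SE 0.073, adjusted p = 1.49e-05) and IGF2R from 426 ± 3.79 to 533 ± 36.7 CPM (log2 0.32, SE 0.063, adjusted p = 0.000642). The AP-1 adaptor genes AP1M1 and AP1S2, which load carriers at the Golgi, rose 1.49-fold (adjusted p = 2.24e-05) and 1.44-fold (adjusted p = 3.77e-05). SORT1, encoding sortilin, the receptor that carries prosaposin and GM2 activator without mannose 6-phosphate, fell from 130 ± 5.80 to 65.8 ± 2.70 CPM (50.5% of control, log2 -0.99, SE 0.067, adjusted p = 5.62e-09). AP3S2, of the AP-3 adaptor, fell to 74.2% of control (adjusted p = 0.00240). Of the genes for prosaposin and GM2 activator, PSAP was lower and GM2A higher, as given above. Other cargo of sortilin on the list was not considered.

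In the list of mTORC1 docking and TFEB control, 9 of 34 tested genes rose (26.5%) and 5 fell (14.7%). The share that fell was near the 16.2% of all genes tested. Besides the folliculin genes below, SEH1L, TSC2, RRAGB, RHEB, LAMTOR4 and MLST8 rose (log2 0.20 to 0.36, adjusted p = 0.0110 to 0.0398). Each of these calls was lost in some fit with 1 library left out. LAMTOR4 rose while LAMTOR2 and LAMTOR3 fell. FLCN and its partners FNIP1 and FNIP2 form the folliculin complex, which lets mTORC1 reach TFEB and TFE3 at the lysosome, and all were higher: FLCN from 33.0 ± 3.33 to 49.1 ± 3.14 CPM (log2 0.57, SE 0.089, adjusted p = 7.48e-05), FNIP1 1.43-fold (adjusted p = 3.49e-05) and FNIP2 1.52-fold (adjusted p = 1.94e-05). The genes that fell were NPRL3, of a complex that restrains mTORC1 (78.9% of control, adjusted p = 0.00286), ZKSCAN3, a zinc finger repressor of lysosomal genes (67.2%, adjusted p = 0.00640), LAMTOR3 (71.7%, adjusted p = 0.0136), LAMTOR2 (82.5%, adjusted p = 0.0441) and SEC13 (86.9%, adjusted p = 0.0470). LAMTOR3 lost its call without shControl 1 (adjusted p = 0.0655) or shDNM1 3 (adjusted p = 0.0803). LAMTOR2 lost it without shControl 1, 2 or 3 or shDNM1 1 (adjusted p = 0.0614, 0.142, 0.108 and 0.142), and SEC13 when any library other than shDNM1 2 was left out (adjusted p = 0.0576 to 0.227).

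Markers of other cells that hold many lysosomes were at or near the floor. Of 12 macrophage and leukocyte markers, TYROBP, C1QA and CD163 had 0 counts in all libraries and CD68 at most 2, and the 12 together summed to 5.40 to 6.59 CPM in shControl and 5.44 to 7.49 CPM in shDNM1. Only 2 of them were tested: CSF1R, a growth factor receptor, rose from 1.10 ± 0.51 to 3.92 ± 0.92 CPM and LYZ, lysozyme, fell from 3.82 ± 0.42 to 1.72 ± 0.43 CPM. Melanocyte markers, relevant to MITF, summed to 7.21 to 8.32 CPM in shControl and 4.78 to 9.55 CPM in shDNM1, with TYR at 0 in all libraries. Of the 3 tested, PMEL fell from 3.50 ± 0.43 to 1.78 ± 0.36 CPM (51.1% of control, adjusted p = 0.0084). MLANA and SOX10 did not pass. Of the 8 fibroblast markers COL3A1 was at 0 in all libraries, PDGFRB (2.66-fold) and LUM (1.39-fold) rose, and the sum was 31.3 to 38.9 CPM in shControl and 42.8 to 57.3 CPM in shDNM1. The 5 endothelial markers summed to 16.9 to 20.3 and 17.9 to 22.8 CPM with KDR at 0, and the 6 embryonic kidney markers to 46.2 to 48.3 and 36.0 to 42.6 CPM with EYA1 at 0. Colon epithelial markers were 5 of 11 higher and 1, EPCAM, lower, and summed to 8561 to 9354 and 9920 to 11235 CPM. The part of the epithelial, fibroblast and kidney shifts in the lysosomal differences was not tested.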

How the data were processed

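RNA of 6 libraries was sequenced, and groups were taken from the sample titles. Gene values in the deposited count table are raw whole-number read counts, which the authors made against GRCh38, per the submitters' processing notes. For the aligner, counter, annotation and strand setting the sources used here give nothing. The values of the authors' deposited TPM table were handled as a score, since repeated gene lines make its columns sum to more than a TPM total; the table was used for levels between genes and for 2 alternatives. Both tables had 62710 lines and 60835 names, and 453 names repeated with identical values were collapsed. No per-sample column was left unused (0).

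The main test was edgeR's (version 4.0.16, R 4.3.3) quasi-likelihood F test, two-sided, without robust estimation, after filterByExpr at its defaults and TMM scaling. Its p-values were adjusted by Benjamini-Hochberg across all 16744 tested genes, the threshold was 0.05, and adjusted p-values are from it where no other setting is given. It was also run on counts simulated independently for each library, and that outcome is not given here. Such counts cannot address the confounding of vector and batch or a spread that is only technical. A common biological coefficient of variation of 0.0743 was estimated. Alternatives used limma 3.58.1 (voom and trend), DESeq2 1.42.0, other scalings and filters, a threshold of 0.01, glmTreat against 1.5-fold, a replicate block and leaving out each library. Tables and figures used Python 3.11.15 with pandas 2.3.3, numpy 2.4.6 and matplotlib 3.10.9. Depth was even, at 12844534 to 13537519 counts, and the SD is over 3 libraries a group.

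The members and lists were chosen with earlier results of these data known. Full statistics were given for up to 4 members of each group with the smallest p and for called members against their group's larger direction, and values for up to 4 called genes of each other list with the smallest p, with DNM1 and the genes of any count of 5 or fewer. IGF2R, the overlapping gene CAP1, and SEH1L, TSC2, RRAGB, RHEB, LAMTOR4 and MLST8 were named after their values were seen. The result of 1 gene that this rule names is not reported here. Gene coordinates are those of the deposited table. Promoter sequences are RefSeq's for GRCh38.p14.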

Additional observations from a re-analysis of the deposited data

How the results depend on the processing

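The number of lysosomal genes called higher (21 in the main fit) was 21 under RLE scaling, upper quartile scaling, no low-count filter, a CPM filter and the robust fit, 20 with library size alone and with limma-voom, and 19 with DESeq2. It was 13 on log2(TPM + 1), 14 on log2(TPM + 0.1), 15 at a threshold of 0.01 and 2 with glmTreat against a 1.5-fold change. Leaving out each library in turn gave 15 to 22, where 1903 to 2939 of all genes were higher. Those called lower (2) numbered 1 with DESeq2 and at 0.01, 0 with glmTreat, 3 on both TPM scales, where CTSC was the third, and 1 to 2 with a library left out. Of the 23 called genes, 2 kept their call under all 19 alternatives, 11 lost it only under glmTreat or the 0.01 threshold, 8 lost it under another scaling or TPM and 7 when 1 library was left out; 4 uncalled genes gained one. The cause of these changes was not tested.

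For all genes, 1739 higher and 1764 lower passed 0.01, and 251 and 340 passed glmTreat. They numbered 2761 and 2573 with RLE scaling, 2468 and 2914 with upper quartile scaling, and 2255 and 3103 with library size alone. DESeq2 gave 2369 and 2053, limma-voom 2596 and 2749, and log2(TPM + 0.1) 1799 and 2837. The robust fit gave 2655 and 2773, no low-count filter 2569 and 2771, and the CPM filter 2748 and 2573. With a library left out, 1903 to 2939 were higher and 2034 to 2951 lower. By group, proton pump genes called higher (8) numbered 5 on log2(TPM + 1) and 1 with glmTreat, proteases (5) 1 with glmTreat, with 1 called lower on each TPM scale, and other hydrolases (3) 0 with glmTreat, with 1 lower by DESeq2 and at 0.01, 0 lower with glmTreat and 1 to 2 lower with a library left out. Membrane proteins (3) numbered 1 on both TPM scales and 0 with glmTreat. The TFEB family (2) numbered 1 with library size alone, DESeq2, limma-voom, both TPM scales and the 0.01 threshold, 0 with glmTreat, and 1 to 2 with a library left out. The other lysosomal genes called higher (38) numbered 22 on both TPM scales and at 0.01 and 2 with glmTreat, and 23 to 41 with a library left out, and those called lower (16) numbered 1 with glmTreat. Of these 54 calls, 20 were lost when 1 library was left out. The DNM1 difference ran from -0.2049 to -0.0373 with a library left out.

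Same-numbered libraries deviated together only weakly, with correlations of 0.10, 0.06 and -0.03, so the numbers were not taken to pair the samples. Libraries 1 and 2 of shDNM1 correlated best with their own number and library 3 did not. With the replicate block 21 lysosomal genes were called higher and 2 lower, and 2964 and 3116 of all genes. With 3 libraries a group of at least 12844534 counts, genes of a few CPM such as TFEB, MITF and CTSL have wide intervals.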
